A study of Mus musculus with 12 samples.

Results

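The dual-specificity MAP kinase phosphatases described here are 9 mouse genes: Dusp1, Dusp2, Dusp4, Dusp5, Dusp6, Dusp8, Dusp10, Dusp14 and Dusp16. They were taken from the deposited count table by gene symbol, and 9 of 9 were found among its 43432 gene identifiers. The table holds RNA sequencing of gastrocnemius muscle, a calf muscle, from 4 groups of male mice with 3 libraries each. The replicate numbers in the labels skip in some groups, so these libraries may be part of a larger set. Sedentary WT mice carried floxed alleles (fl/fl), sedentary MKO mice lacked cFeimin, the cellular form of the protein Feimin, and the exercised WT and exercised MKO groups were taken after a run of 90 minutes at 60% of maximal speed. The control animals thus carried the floxed allele too, and the labels describe them as littermates. The sources used here do not give the Cre driver behind the MKO mice, their age or the time between the end of the run and sampling. The study's title and design ask how cFeimin bears on running and on muscle heat production.

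MAP kinases (ERK, JNK and p38) are switched on by phosphorylation of a threonine and a tyrosine in their activation loop. Dual-specificity phosphatases remove both phosphates and so end the signal, and several of them are themselves induced by the signal they stop. Contracting skeletal muscle is known to activate all of these kinase families. DUSP1, DUSP2, DUSP4 and DUSP5 are nuclear enzymes that are inducible in many cells. DUSP6 is a cytoplasmic phosphatase of ERK, DUSP8, DUSP10 and DUSP16 act mainly on JNK and p38, and DUSP14 is a small atypical member without the kinase-binding domain of the others.

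Promoter sequences are shown for the members in which a searched motif was found, because the members did not move together after running and their start regions can be read beside that. RefSeq promoter windows (GRCm38.p6, from 250 bases before to 50 bases after the start) matched 8 of the 9 genes, and Dusp4 had none. Both strands were searched for the cyclic AMP response element TGACGTCA, the AP-1 site TGANTCA, the CArG box, the EGR site GCGTGGGCG, the E-box CACGTG and the ETS site CCGGAAGT. Stretches with a match follow, 5′ to 3′ on the gene's strand, with the matches in capitals.
Dusp1: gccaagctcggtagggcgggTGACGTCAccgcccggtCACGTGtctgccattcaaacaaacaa
Dusp8: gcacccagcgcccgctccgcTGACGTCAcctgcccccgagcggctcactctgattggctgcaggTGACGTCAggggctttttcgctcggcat
Dusp5: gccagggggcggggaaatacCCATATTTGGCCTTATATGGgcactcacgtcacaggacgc
Dusp2: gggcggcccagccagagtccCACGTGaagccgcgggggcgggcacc
The Dusp1 stretch (chr17:26508573-26508635, minus strand) holds a cyclic AMP response element at -143 to -136 and an E-box at -126 to -121, counted from the RefSeq start. In Dusp8 (chr7:142095320-142095411, minus strand) the same response element stands at -107 to -100 and again at -63 to -56. Dusp5 (chr19:53529043-53529102, plus strand) has a pair of adjoining CArG boxes, at -82 to -73 and -72 to -63, and Dusp2 (chr2:127336030-127336075, plus strand) an E-box at -109 to -104. Of all 32851 windows, 1.79% hold the cyclic AMP response element, 1.63% a CArG box and 7.15% the E-box. The AP-1, EGR and ETS letters, held by 7.81%, 0.612% and 3.89% of windows, were in none of the 8, and the windows of Dusp6, Dusp10, Dusp14 and Dusp16 held none of the 6 motifs. A match describes letters in a window and not a site in use.

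Count totals lay between 14324010 and 14563501 per library, 14486 genes were tested, and levels are CPM, read counts scaled to library size, in which 3 counts equal 0.181 to 0.222. The targeted gene, taken to be B230219D22Rik, had 293 to 405 counts in the WT libraries and 49 to 92 in the MKO libraries. All 7 skeletal muscle markers had counts in every library. On the first principal component (32.5% of the variance) the sedentary libraries lay between -30.5 and -21.1. The exercised WT libraries lay at 33.0, 35.4 and 39.6, and exercised MKO replicate 2 lay near them at 28.4. Exercised MKO replicates 1 and 4 lay between these and the sedentary libraries, at 12.3 and 12.4, and closer to the exercised WT libraries than to rest. Sedentary MKO replicate 3 had the highest scaling factor, 1.15. No label names a batch or says how the replicates were raised, so p-values speak only of the spread among the libraries at hand, which may be technical.

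Per length, Dusp1 was the most abundant of the 9 transcripts in all 4 groups. In sedentary WT muscle it stood at 14.8 ± 3.25 CPM per kb of exon (mean ± SD, n = 3 in this and all later groups). Dusp8 followed at 5.57 ± 0.797 CPM per kb and Dusp10 at 3.85 ± 1.002 CPM per kb. Dusp6 (2.73 ± 0.624 CPM per kb), Dusp14 (2.66 ± 0.545) and Dusp16 (2.18 ± 0.107) came next. Dusp4 (0.365 ± 0.0312 CPM per kb), Dusp2 (0.307 ± 0.191) and Dusp5 (0.202 ± 0.104) were scarce. The libraries of neighbours in this order overlapped between Dusp10 and Dusp6, between Dusp6 and Dusp14, and among the scarce Dusp4, Dusp2 and Dusp5. The other steps in the order were free of overlap.

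After running, Dusp14 held the third place per length in both genotypes, at 4.93 ± 0.521 CPM per kb in WT and 4.57 ± 0.434 CPM per kb in MKO muscle. Dusp10 moved from the third place to the fifth in WT muscle (1.77 ± 0.298 CPM per kb) and to the fourth in MKO muscle (2.61 ± 0.986 CPM per kb). These places were not all distinct. After running, libraries of Dusp10 overlapped with those of Dusp6 in WT and of Dusp16 in MKO muscle, and in MKO muscle those of Dusp14 overlapped with Dusp8. The summed level of the 9 transcripts was 32.7 ± 2.82 CPM per kb in sedentary WT and 33.4 ± 6.47 CPM per kb in sedentary MKO muscle. After the run it came to 72.3 ± 7.19 CPM per kb in WT muscle and to 52.4 ± 18.2 CPM per kb in MKO muscle, where the libraries ranged from 40.6 to 73.4. Dusp1 alone made up 45.0% ± 5.90 of the WT sum and 45.0% ± 4.07 of the MKO sum at rest, and after running 71.9% ± 4.58 in WT and 63.7% ± 7.96 in MKO muscle. At rest the mean share of Dusp1 differed between the genotypes by less than the SD of either, and after running most of the sum was Dusp1 transcript.

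**Figure D1:**
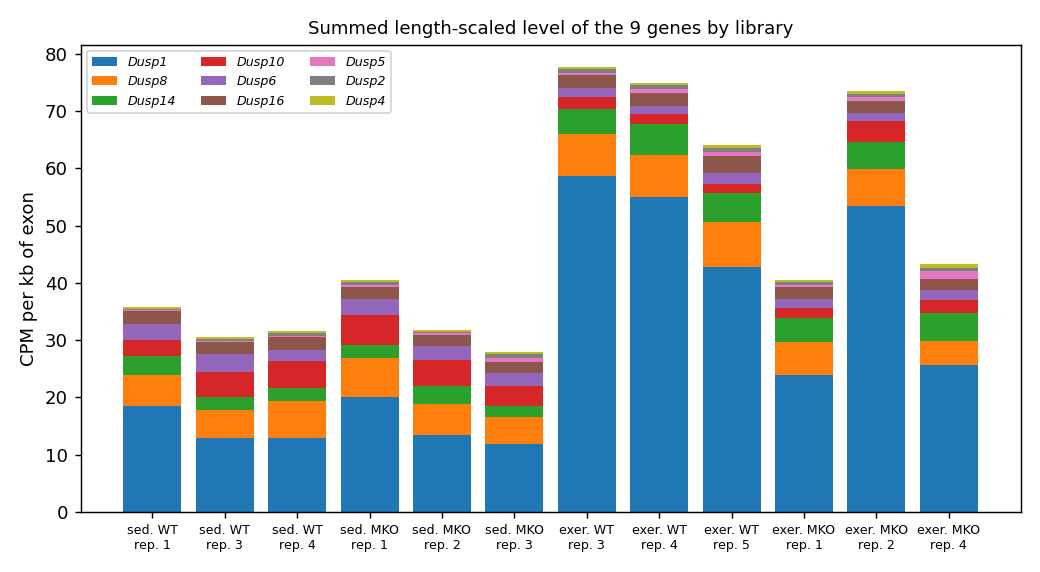
Summed length-scaled level of the 9 transcripts in each of the 12 libraries (CPM per kb of exon, vertical axis), with 1 colour per gene and 1 bar per library. The Dusp1 segment is the tallest in every bar, and exercised MKO replicate 2 stands with the exercised WT libraries while replicates 1 (40.6) and 4 lie nearer to the sedentary bars.

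Setting the exercised beside the sedentary WT libraries asks which of these phosphatase genes respond to the run. Dusp1 and Dusp14 rose, and Dusp10 and Dusp6 fell. These 4 of 9 passed an adjusted p under 0.05 in edgeR's quasi-likelihood test, against 8.24% of all 14486 genes tested, 4.14% higher and 4.1% lower. In 5 members (Dusp1, Dusp2, Dusp5, Dusp8 and Dusp14) every exercised WT library was above every sedentary one, as in 12.5% of all genes, and in Dusp10 every one was below, as in 14.8%. The median log2 fold change of the 9 was 0.42, against -0.01 over all genes, with 7 values positive and 2 negative. In MKO muscle Dusp14 alone passed (1 of 9, against 4.05% of all genes, 2.29% higher). There 3 members (Dusp1, Dusp4 and Dusp14) lay wholly above rest, against 10.1% of all genes, and Dusp6 wholly below, against 11.6%. The raw counts of Dusp4 overlapped (12 to 15 at rest and 14 to 25 after running), so that its separation in MKO muscle came from the scaling of libraries. The median in MKO muscle was 0.44, against 0.00 over all genes, with 5 values positive and 4 negative. That median is the value of the scarce Dusp2 (0.44 ± 0.36, edgeR, adjusted p = 0.654).

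Dusp1 (ENSMUSG00000024190, chr17:26505590-26562128, minus strand) encodes an immediate-early phosphatase of p38, JNK and ERK. Its normalised level in sedentary WT libraries was 61.4, 42.8 and 42.7 CPM. In sedentary MKO libraries it was 66.6, 44.6 and 39.4 CPM. The exercised WT libraries had 194.5, 182.4 and 141.8 CPM, and the exercised MKO libraries had 79.4, 177.1 and 84.7 CPM. Every exercised library of either genotype was above every sedentary one, but in exercised MKO muscle replicate 2 was at the WT level and replicates 1 and 4 were not far above rest. In WT muscle Dusp1 rose 3.53-fold (log2 fold change 1.82 ± 0.31 SE, edgeR, adjusted p = 0.00351). In MKO muscle the log2 fold change was 1.18 ± 0.31 (adjusted p = 0.0555), which missed the threshold. That value depended on single libraries: without exercised MKO replicate 2 it was 0.71 (adjusted p = 0.200), without exercised MKO replicate 1 it was 1.38 (adjusted p = 0.0381), and without sedentary MKO replicate 1 it was 1.44 (adjusted p = 0.0489). DESeq2 called it (1.19, adjusted p = 0.00233). The gene shares 11 exonic bases with Ergic1 on the opposite strand.

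**Figure D2:**
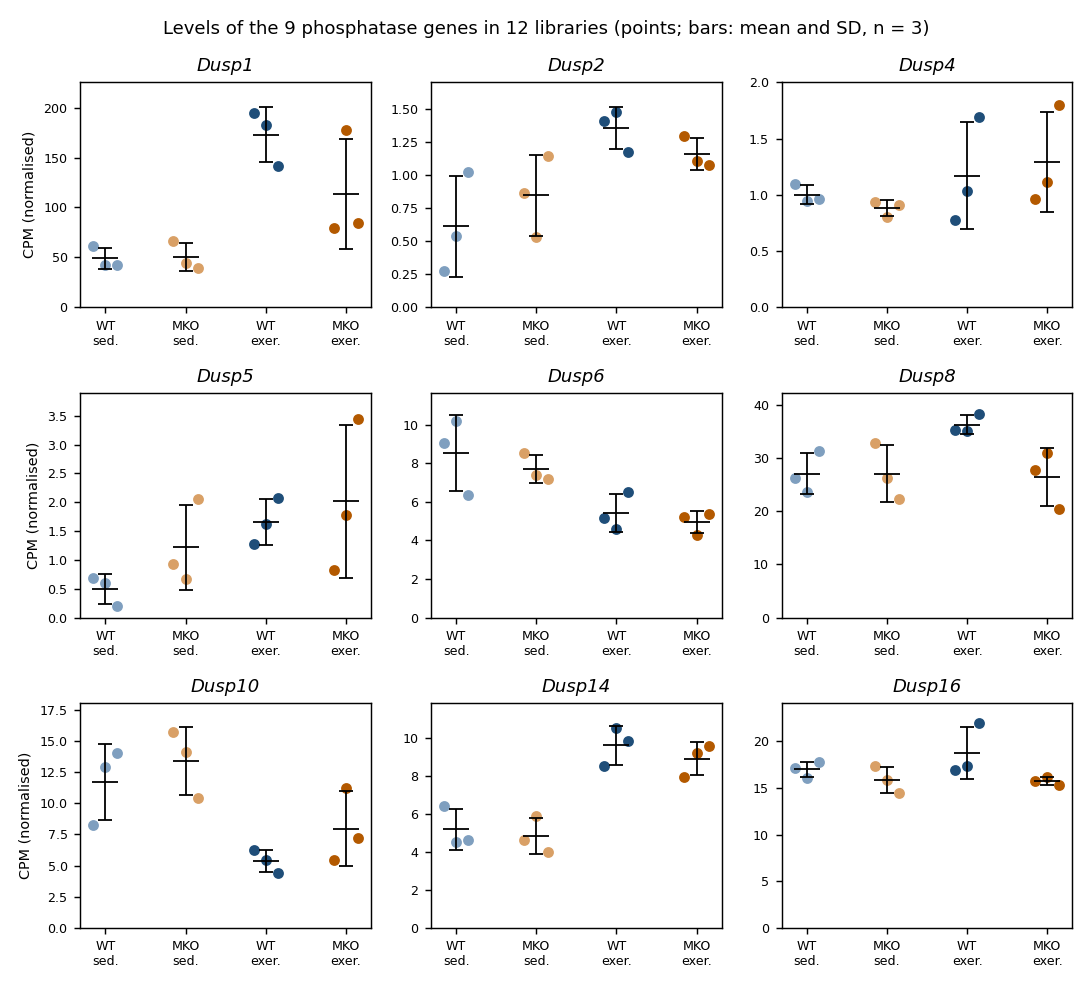
Normalised level (CPM, vertical axis from 0) of each phosphatase gene in the 12 libraries, as points by genotype and state (sed., sedentary, and exer., exercised), with the mean and SD of the 3 libraries of a group. Dusp1 and Dusp14 lie higher in all 6 exercised libraries than in any sedentary one, Dusp6 and Dusp10 lie lower in most, and the Dusp1 points of exercised MKO muscle are split between 177.1 CPM and 79.4 to 84.7 CPM.

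Dusp2, Dusp4 and Dusp5, the other nuclear members, were close to the limit of detection. Dusp2 (ENSMUSG00000027368, chr2:127336159-127338376, plus strand), known mainly from activated immune cells, had 4 to 20 counts per library. Its level was 0.27, 0.54 and 1.03 CPM in sedentary WT and 0.87, 0.53 and 1.15 CPM in sedentary MKO libraries. After running it was 1.42, 1.48 and 1.18 CPM in WT and 1.30, 1.11 and 1.08 CPM in MKO libraries. The WT groups did not overlap and the MKO groups did. The log2 fold change was 1.13 ± 0.38 in WT (edgeR, adjusted p = 0.0976) and 0.44 ± 0.36 in MKO muscle (adjusted p = 0.654). The WT value was 1.72 (adjusted p = 0.0237) without sedentary WT replicate 4 and 0.79 (adjusted p = 0.266) without sedentary WT replicate 1. The MKO value was 0.20 without sedentary MKO replicate 2 and 0.74 without sedentary MKO replicate 3.

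Dusp5 (ENSMUSG00000034765, chr19:53529109-53542431, plus strand) encodes a nuclear phosphatase that acts on ERK alone. It had 3 to 48 counts per library, and 547 of its exonic bases are shared with an antisense gene. Because the use of strand in counting is not given, reads of the pair cannot be told apart. The level was 0.69, 0.61 and 0.21 CPM in sedentary WT and 0.93, 0.67 and 2.06 CPM in sedentary MKO libraries. After running it was 1.27, 1.63 and 2.06 CPM in WT and 0.82, 1.78 and 3.45 CPM in MKO libraries. Every exercised WT library exceeded every sedentary WT library, whereas both MKO groups were wide and overlapped. The log2 fold change was 1.71 ± 0.61 in WT (edgeR, adjusted p = 0.121) and 0.70 ± 0.51 in MKO muscle (adjusted p = 0.600). In a fit of the WT libraries alone the WT value passed (1.72, adjusted p = 0.0326), and with the replicate number as a block it was 1.20 (adjusted p = 0.413). The MKO value was 0.063 without exercised MKO replicate 4 and 1.33 without sedentary MKO replicate 3.

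Dusp4 (ENSMUSG00000031530, chr8:34807297-34819894, plus strand), a nuclear phosphatase of ERK and JNK, had 11 to 25 counts per library. Its level was 0.94 to 1.10 CPM in sedentary WT and 0.80 to 0.93 CPM in sedentary MKO libraries. It was 0.78, 1.03 and 1.70 CPM in exercised WT and 0.96, 1.11 and 1.80 CPM in exercised MKO libraries. In each exercised group a single library was well above the others. The log2 fold change was 0.22 ± 0.31 in WT (edgeR, adjusted p = 0.766) and 0.54 ± 0.31 in MKO muscle (adjusted p = 0.474), and the WT value turned to -0.14 without exercised WT replicate 5. The MKO value was 0.23 without exercised MKO replicate 4.

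Dusp6 (ENSMUSG00000019960, chr10:99263231-99267489, plus strand) encodes the cytoplasmic phosphatase of ERK and is a common marker of ERK activity. Its level was 9.07, 10.2 and 6.38 CPM in sedentary WT and 8.53, 7.42 and 7.20 CPM in sedentary MKO libraries. After running it was 5.17, 4.58 and 6.49 CPM in WT and 5.21, 4.297 and 5.39 CPM in MKO libraries. Sedentary WT replicate 4 and exercised WT replicate 5 just overlapped, and the MKO groups did not. Dusp6 fell by 0.66 on the log2 scale in WT muscle (-0.66 ± 0.18, edgeR, adjusted p = 0.0472). The MKO value was nearly as large, -0.63 ± 0.18, and missed the threshold (adjusted p = 0.0888). The WT call was narrow: it was lost in 16 of 22 alternatives, among them DESeq2 (adjusted p = 0.0577), limma-voom (0.0600) and leaving out sedentary WT replicate 3 (0.179).

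Among the phosphatases of JNK and p38, Dusp10 (ENSMUSG00000039384, chr1:184013302-184075636, plus strand) fell in WT muscle. Its level was 8.25, 12.9 and 13.99 CPM in sedentary WT and 15.7, 14.1 and 10.4 CPM in sedentary MKO libraries. After running it was 6.23, 5.47 and 4.42 CPM in WT and 5.41, 11.3 and 7.19 CPM in MKO libraries. Exercised WT libraries were all below rest, and of the exercised MKO libraries replicate 2 stayed within the sedentary range. The log2 fold change was -1.12 ± 0.28 in WT (edgeR, adjusted p = 0.0290) and -0.76 ± 0.27 in MKO muscle (adjusted p = 0.177). Without exercised MKO replicate 2 the MKO value was -1.09 (adjusted p = 0.0622). The WT call was lost in 8 of 22 alternatives, among them those without sedentary WT replicate 3 (adjusted p = 0.0959) or 4 (0.100), or without exercised WT replicate 3 (0.0580), 4 (0.0799) or 5 (0.108). In exercised MKO muscle replicate 2 was thus the library with the highest level of both Dusp1, which rose in WT muscle, and Dusp10, which fell there.

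Dusp8 (ENSMUSG00000037887, chr7:142079490-142095843, minus strand) had 26.3, 23.7 and 31.4 CPM in sedentary WT and 32.8, 26.2 and 22.3 CPM in sedentary MKO libraries. It had 35.3, 35.2 and 38.3 CPM in exercised WT and 27.8, 31.0 and 20.4 CPM in exercised MKO libraries. The exercised WT libraries were closely grouped above all sedentary WT libraries, and in MKO muscle the groups overlapped throughout. The log2 fold change was 0.42 ± 0.17 in WT (edgeR, adjusted p = 0.172) and -0.04 ± 0.17 in MKO muscle (adjusted p = 0.966). Dusp8 shares 66 exonic bases with a gene on the opposite strand. Dusp16 (ENSMUSG00000030203, chr6:134715468-134792625, minus strand) had the smallest log2 fold changes of the 9 in both genotypes. Its level was 16.1 to 17.8 CPM in sedentary WT, 14.5 to 17.3 in sedentary MKO, 17.0, 17.4 and 21.98 in exercised WT and 15.3 to 16.2 in exercised MKO libraries, and the WT groups overlapped, as did the MKO groups. The log2 fold change was 0.14 ± 0.11 in WT (edgeR, adjusted p = 0.514) and -0.01 ± 0.11 in MKO muscle (adjusted p = 0.989).

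Dusp14 (ENSMUSG00000018648, chr11:84048041-84069261, minus strand), the atypical member, rose in both genotypes. Its level was 6.39, 4.52 and 4.60 CPM in sedentary WT and 4.60, 5.88 and 3.99 CPM in sedentary MKO libraries. After running it was 8.49, 10.5 and 9.81 CPM in WT and 7.95, 9.19 and 9.56 CPM in MKO libraries. Each exercised library was above each sedentary one, and in exercised MKO muscle replicate 1 was lowest and replicate 4 highest. The rise was 1.86-fold in WT (log2 fold change 0.89 ± 0.17, edgeR, adjusted p = 0.00699) and 1.85-fold in MKO muscle (0.88 ± 0.17, adjusted p = 0.0137). The MKO call was lost without sedentary MKO replicate 1 (adjusted p = 0.0530) or 3 (0.0513), or without exercised MKO replicate 2 (0.0553) or 4 (0.0514). The WT calls of Dusp1 and Dusp14 held in all 22 alternatives tried. Those 22 include the average over both genotypes, which is another contrast. They also include the fits without 1 MKO library, which hardly moved the WT values (1.82 to 1.83 for Dusp1).

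**Figure D3:**
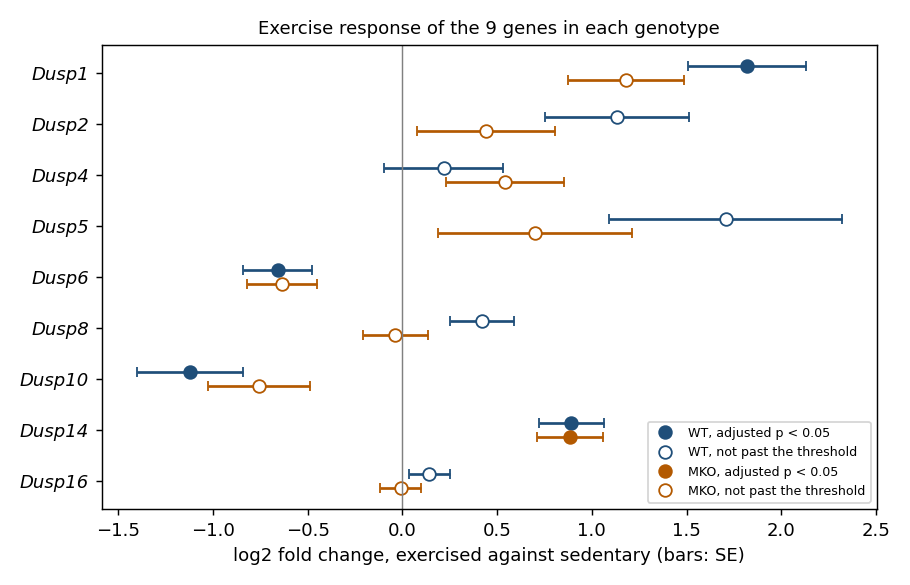
Log2 fold change of exercised against sedentary muscle (horizontal axis) for each gene in WT (blue) and MKO (orange) mice, with bars of 1 SE and filled points where the edgeR adjusted p was under 0.05. The WT and MKO points of Dusp14 and of Dusp6 nearly coincide, while those of Dusp1, Dusp2, Dusp5 and Dusp8 lie further right in WT.

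Averaged over both genotypes, a comparison chosen after the data were seen, the same 4 genes passed, against 13.6% of all genes (6.16% higher and 7.4% lower). The averaged log2 fold change was 1.499 ± 0.22 for Dusp1 (edgeR, adjusted p = 0.000666) and 0.89 ± 0.12 for Dusp14 (adjusted p = 0.00046). It was -0.94 ± 0.19 for Dusp10 (adjusted p = 0.00675) and -0.65 ± 0.13 for Dusp6 (adjusted p = 0.00567). Dusp1 and Dusp14 were the 2 members with all 6 exercised above all 6 sedentary libraries, as in 3.75% of all genes.

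The comparison of MKO with WT muscle asks what the loss of cFeimin does to these genes at rest and after the run. At rest no member passed in edgeR (0 of 9, against 0.0069% of all genes), none had an unadjusted p under 0.05, and neither DESeq2 nor limma-voom called any. The largest value was that of Dusp5, 1.29 ± 0.63 (edgeR, adjusted p = 1), which was 0.66 without sedentary MKO replicate 3. Dusp2 had 0.47 ± 0.40 (0.13 without sedentary WT replicate 1 and 1.06 without replicate 4), Dusp10 0.19 ± 0.26 and Dusp1 0.03 ± 0.30. Dusp4 had -0.18 ± 0.32, Dusp6 -0.15 ± 0.18, Dusp14 -0.10 ± 0.18, Dusp16 -0.10 ± 0.11 and Dusp8 -0.00 ± 0.17, the last turning to 0.077 when libraries were scaled by total counts alone. Every sedentary MKO library was below every sedentary WT library in Dusp4 alone, against 4.91% of all genes. Before scaling, its counts overlapped (14 to 16 in WT and 12 to 15 in MKO libraries).

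After running no member passed either (0 of 9, against 0.0345% of all genes; DESeq2 and limma-voom also 0). Dusp8 and Dusp16 had an unadjusted p under 0.05 (2 of 9), as had 2319 of all 14486 genes. Dusp8 and Dusp16 were also the 2 members in which every exercised MKO library was below every exercised WT library, as in 12% of all genes. Their log2 fold changes were -0.46 ± 0.17 (edgeR, adjusted p = 0.243) and -0.25 ± 0.11 (adjusted p = 0.290), the latter -0.13 without exercised WT replicate 5. Dusp1 had -0.60 ± 0.30 (adjusted p = 0.343), -1.08 (adjusted p = 0.0710) without exercised MKO replicate 2, -0.40 (adjusted p = 0.567) without replicate 1 and -0.44 (adjusted p = 0.782) without replicate 4. Dusp10 had 0.56 ± 0.29 (adjusted p = 0.355), which was 0.22 without exercised MKO replicate 2. The remaining values were 0.28 ± 0.50 for Dusp5, 0.14 ± 0.30 for Dusp4, -0.22 ± 0.35 for Dusp2, -0.12 ± 0.19 for Dusp6 and -0.11 ± 0.17 for Dusp14 (adjusted p = 0.767 to 0.843).

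The difference between the exercise responses was tested as an interaction, and no member passed (0 of 9, against 0.0% of all genes; 0 with an unadjusted p under 0.05). MKO minus WT response was -0.64 ± 0.43 for Dusp1 (edgeR, adjusted p = 0.983), and it ranged from -1.12 without exercised MKO replicate 2 to -0.38 without sedentary MKO replicate 1. It was -0.46 ± 0.24 for Dusp8 (-0.29 without sedentary MKO replicate 1) and -0.15 ± 0.15 for Dusp16 (-0.027 without exercised WT replicate 5). Dusp2 had -0.69 ± 0.53, with -1.28 and -0.35 without sedentary WT replicates 4 and 1. Dusp5 had -1.01 ± 0.81, with -1.65 without exercised MKO replicate 4 and -0.40 without sedentary MKO replicate 3. Positive values were found for Dusp10 (0.37 ± 0.39), Dusp4 (0.32 ± 0.44) and Dusp6 (0.03 ± 0.26, which was -0.024 under scaling by total counts), and Dusp14 was at -0.01 ± 0.25. The value of Dusp10 was 0.024 without exercised MKO replicate 2, and that of Dusp4 was 0.00048 without exercised MKO replicate 4. With all libraries, adjusted p was 0.983 to 0.997 throughout. A call in WT and none in MKO muscle was therefore not shown to be a difference between the genotypes, and these p-values do not show that the responses were alike. With the genotype effect averaged over both states 0 of 9 passed (against 0.0138% of all genes). Of the 9, 1, Dusp16, had an unadjusted p under 0.05 (-0.18 ± 0.08, adjusted p = 0.303), as had 2245 of all 14486 genes. The comparisons share libraries: the exercised WT libraries enter both the WT response and the exercised genotype comparison.

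For each member that passed, the genes with the most similar pattern were sought among 13053 genes as the smallest root-mean-square difference of centred log2 CPM over the 12 libraries. Nearest to Dusp1 were Irf2bp2 (0.216), Ier2 (0.234) and Emd (0.252), beside a spread of Dusp1 itself of 0.848 on that scale. Nearest to Dusp14 were Slc39a14 (0.0991), Proscos (0.130) and Zfp703 (0.159), beside a spread of 0.479. For Dusp6 they were Poc5 (0.130), Itga9 (0.131) and Cav2 (0.145), beside 0.375. For Dusp10 they were Gfra2 (0.277), Rgl1 (0.285) and Ypel2 (0.287), beside 0.595, so that its nearest genes were the least close of the 4 sets.

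Other genes of the pathway were taken from 7 lists and are given beside the 9 phosphatases. Counts of calls in these lists stand beside 8.24% of all genes called for exercise in WT and 4.05% in MKO muscle. The 2 calls of 31 upstream kinase genes in WT muscle lay under that share. Of 11 MAP kinase genes tested, 2 changed in WT muscle: Mapk6, which encodes the atypical kinase ERK3, rose (log2 fold change 0.63 ± 0.13, edgeR, adjusted p = 0.00913) and Mapk3, which encodes ERK1, fell (-0.65 ± 0.12, adjusted p = 0.00675). None passed in MKO muscle, where Mapk6 had 0.47 ± 0.13 (adjusted p = 0.0664), 2 had an unadjusted p under 0.05 and DESeq2 called 1. Of 31 upstream kinase genes, Map3k6 (1.70 ± 0.30, adjusted p = 0.00417) and Map3k2 (0.99 ± 0.23, adjusted p = 0.0212), which encode kinases at the head of MAP kinase cascades, rose in WT muscle. The call of Map3k2 was lost in 4 of 12 fits with a library left out (each sedentary WT replicate and exercised WT replicate 5, where it was 0.69) and in 2 of 9 other alternatives, and the list had 1 call instead of 2 without sedentary WT replicate 3 or 4 or exercised WT replicate 5. In MKO muscle 0 passed (5 with an unadjusted p under 0.05, DESeq2 2, limma-voom 0). The kinases that MAP kinases activate had 0 of 10 calls in either genotype, with 3 at an unadjusted p under 0.05 in each, and DESeq2 called 1 in MKO muscle. Their lowest p in WT muscle was that of Mapkapk3 (0.43 ± 0.14, adjusted p = 0.0976). The list medians were 0.16, 0.06 and 0.13 in WT muscle.

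The other dual-specificity phosphatase genes gave 0 calls of 15 in both genotypes in edgeR and limma-voom, with 1 at an unadjusted p under 0.05 in each, and DESeq2 called 1 in WT muscle. Dusp3, a small phosphatase of ERK and JNK, came nearest in WT muscle (0.29 ± 0.09, adjusted p = 0.0819). Their median was 0.09, against 0.42 for the 9 members. Other inhibitors of the pathway went both ways in WT muscle, with 4 of 18 passing. Errfi1, an inhibitor of the EGF receptor, rose (1.24 ± 0.21, edgeR, adjusted p = 0.00345), as did the Sprouty gene Spry4 (1.94 ± 0.42, adjusted p = 0.0142), whereas Spry1 (-1.24 ± 0.10, adjusted p = 2.96e-05) and Spred2 (-0.86 ± 0.18, adjusted p = 0.0121) fell. In MKO muscle Errfi1 rose (0.96 ± 0.21, edgeR, adjusted p = 0.0245) and Spry1 fell (-0.70 ± 0.10, adjusted p = 0.00199). The Errfi1 call in MKO muscle was lost without sedentary MKO replicate 2 or 3 or exercised MKO replicate 1 or 2, and in 2 of 9 other alternatives. In WT muscle that of Spry4 was lost in 3 of 12 fits (without sedentary WT replicate 1 or 4 or exercised WT replicate 3) and that of Spred2 without exercised WT replicate 4 and with the replicate block.

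Genes listed as outputs of ERK had the most calls of the 7 lists: 8 of 19 rose and 1, Jun (-0.88 ± 0.18, edgeR, adjusted p = 0.00882), fell in WT muscle, with a median of 0.59. Of all genes 8.24% were called there. ERK activity itself was not measured. The list was not uniform, with 12 positive and 7 negative values in WT and 11 and 8 in MKO muscle. Besides Jun, the negative ones in WT muscle were Epha4, Ccnd1, Ier3, Etv1, Etv4 and Etv5 (-0.94 to -0.23), none of them called. In MKO muscle 7 rose and 0 fell, with a median of 0.14, and this count was 4 without sedentary MKO replicate 2 or exercised MKO replicate 2, and 3 without exercised MKO replicate 4, sedentary MKO replicate 3 and exercised WT replicate 5 together. Examples are Ier2, an immediate-early gene (1.91 ± 0.23 in WT and 1.14 ± 0.23 in MKO muscle), the receptor gene Epha2 (1.62 ± 0.19 and 1.53 ± 0.20) and the stress-response factor Atf3 (3.65 ± 0.57 and 2.37 ± 0.54), with adjusted p of 0.0299 or less in each. The Ier2 call in MKO muscle was lost without sedentary MKO replicate 2, without exercised MKO replicate 2 and without those 3 libraries together. The immediate-early gene Egr1 was the only gene of the 7 lists that passed between exercised MKO and WT muscle (-2.22 ± 0.31, edgeR, adjusted p = 0.0424). That call was lost in 9 of 12 fits with a library left out (the value was -2.46 to -1.98 over the 12) and in 4 of 9 other alternatives, among them the fit without a filter (adjusted p = 0.0788). Of 19 growth factor and receptor genes, Fgfr3 (1.77 ± 0.20), Hbegf (1.81 ± 0.26) and Met (0.61 ± 0.11) rose and Pdgfra (-1.63 ± 0.14) and Pdgfrb (-1.22 ± 0.13) fell in WT muscle, with adjusted p of 0.00622 or less. In MKO muscle Fgfr3 rose and Pdgfra and Pdgfrb fell.

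**Figure D4:**
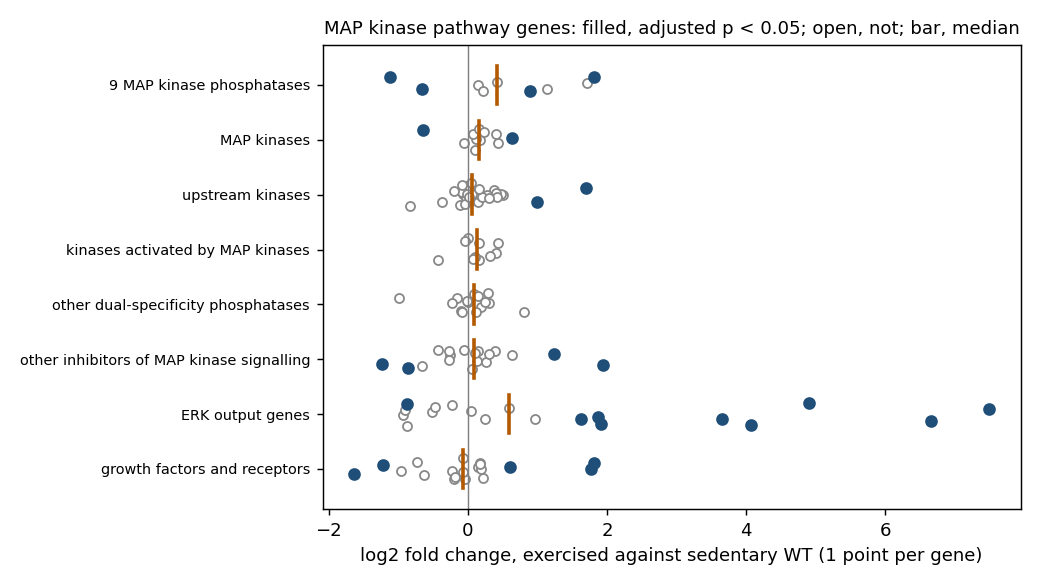
Log2 fold change of exercised against sedentary WT muscle (horizontal axis) for the tested genes of the 9 phosphatases and 7 pathway lists, 1 point per gene, filled where the edgeR adjusted p was under 0.05, with a bar at each list's median. The 9 members spread from -1.12 to 1.82, more widely than the 15 other dual-specificity phosphatases, and ERK output genes reach 7.49.

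Markers of other cells were read beside these results, since in whole muscle fewer cells of a type and less RNA per cell cannot be told apart. Fibroblast markers (5 of 5 with counts in every library) summed to 385 to 482 CPM in sedentary WT and 508 to 536 CPM in sedentary MKO libraries. After running they summed to 218 to 247 CPM in WT and 226 to 350 CPM in MKO libraries. Of the 5, 2 fell in each genotype, and their median log2 fold change was -1.28 in WT and -0.73 in MKO muscle, the direction of Dusp6 and Dusp10. Averaged over both genotypes 4 of 5 fell, with a median of -0.98. Pdgfra, of the receptor list, is also 1 of these markers. Macrophage markers summed to 27.4 to 32.4 CPM in sedentary WT, 38.2 to 53.1 in sedentary MKO, 15.9 to 20.5 in exercised WT and 23.2 to 46.9 in exercised MKO libraries. Within either genotype no macrophage marker passed for exercise in edgeR (0 of 5, with an unadjusted p under 0.05 for 3 in WT and 1 in MKO muscle). Averaged over both genotypes 2 of 5 fell, with a median of -0.48. Red blood cell markers had medians of -0.90 in WT and -1.44 in MKO muscle, with 0 of 4 passing in either (2 and 4 at an unadjusted p under 0.05) and 3 lower in the average. Markers of mural cells, the cells around small vessels, had medians of -0.25 and -0.28 with 1 of 5 lower in each genotype. Of 3 adipocyte markers tested, with medians of -0.36 and -0.61, 0 passed within a genotype (1 and 2 at an unadjusted p under 0.05) and 1 fell in the average. The part of these cells in the levels of Dusp6 and Dusp10 was not tested. Lymphocyte markers summed to at most 0.616 CPM with Cd3g and Cd8a at 0 in all libraries, and neutrophil markers to at most 0.934 CPM with S100a8 and Ly6g at 0. Endothelial markers, which summed to 129 to 159.6 CPM in WT and 100.1 to 157 CPM in MKO libraries, had 1 of 5 higher after running in each genotype, with medians of -0.27 in WT and -0.29 in MKO muscle and an unadjusted p under 0.05 for 4 and 3 of the 5. In the average 1 of 5 was higher and 3 were lower, and the part of endothelial cells was not tested either. Schwann cell markers varied widely within each group. They summed to 38.6 to 126 CPM in sedentary WT and 46.3 to 288 CPM in sedentary MKO libraries. After running they summed to 44.8 to 148 CPM in WT and 28.7 to 215 CPM in MKO libraries, with 0 of 5 passing for exercise in either genotype. The part of Schwann cells in the levels of the members was not tested. Satellite cell markers had medians of -0.37 in WT and -0.43 in MKO muscle for exercise, with 0 of 3 passing. Between MKO and WT muscle macrophage markers had medians of 0.59 at rest and 1.14 after running. None passed in edgeR, with 3 and 5 of 5 at an unadjusted p under 0.05. Fibroblast markers had 0.31 and 0.63, with 0 and 3 of 5 at that level and none passing. Medians of other lists went both ways. Their part in the genotype comparisons of the members was not tested.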

How the data were processed

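The values were raw read counts per Ensembl gene, as deposited by the authors in a table of 12 libraries. Named in the submitters' processing notes are the builds mm10 and GRCm38.p6 and, with no role, StringTie 2.1.4, HISAT2 2.2.1, DESeq2 1.40.2 in R 4.3, SAMtools 1.9 and FastQC 0.12.1. Per the labels' protocols, total RNA was purified with a GeneMark kit, and BGI prepared and sequenced the libraries (DNBSEQ). The sources used here do not say which tool counted the reads, or whether by strand. The column of exercised MKO replicate 4 was identified despite a misspelt name, since each other library had its own. Symbols, positions and exonic lengths came from GENCODE M21 (GRCm38.p6), in which 42462 of 43432 identifiers had a symbol, and promoters from RefSeq.

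The analysis used edgeR 4.0.16 (R 4.3.3): filterByExpr (minimum count 10, minimum total 15), which left 14486 genes and all 9 members, TMM scaling (0.928 to 1.15), and 1 quasi-likelihood model of 4 group means with 8 residual degrees of freedom. The biological coefficient of variation was 15.3%. The threshold was a Benjamini-Hochberg adjusted p under 0.05 over all genes tested, and SEs were derived from the F statistic. Levels are CPM scaled by TMM, divided by exonic kb where genes are compared. The script was tested on simulated counts.

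The members, 7 gene lists, 11 marker lists, motifs and alternatives were chosen with earlier results of these data known. All members were named, and of each list the genes that passed (at most 6 by p) or else the 1 of lowest p, plus the 3 genes closest to each member that passed, among genes of at least 1 CPM (log2 CPM with a prior count of 2). Jun, the other ERK output genes with negative values and genes given for a second comparison were added after their values were seen. Alternatives were DESeq2 1.42.0, limma-voom (limma 3.58.1), median-of-ratios scaling, total counts alone, no filter, a block for the replicate number, only the compared groups, 1 CPM in 3 libraries, each library left out, and 3 libraries left out together. No rule for choosing those 3 is given. The exercise effect averaged over both genotypes was added after the data were seen, and it is 1 of the 22 alternatives counted for members in WT muscle.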

Additional observations from a re-analysis of the deposited data

How the results depend on the processing

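Dusp1 and Dusp14 kept their call for exercise in WT muscle in all alternatives. The number of members called for exercise in WT muscle, 4, was 2 without a filter, 2 with the replicate block and 2 to 4 with a library left out (2 without sedentary WT replicate 3 or exercised WT replicate 3 or 4). In MKO muscle the number, 1, was 2 with DESeq2, 2 under total counts alone and 0 with the replicate block. It was 0 with 3 libraries left out together (exercised MKO replicate 4, sedentary MKO replicate 3 and exercised WT replicate 5). No rule for choosing these 3 is given. On the first principal component exercised WT replicate 5 (39.6) lay with its group. Exercised MKO replicate 4 (12.4) lay beside replicate 1 (12.3), which was kept. With a library left out it was 0 to 2 (0 without sedentary MKO replicate 3 or exercised MKO replicate 2 or 4, and 2 without sedentary WT replicate 4 or exercised MKO replicate 1). The 4 calls averaged over both genotypes belong to another contrast, which includes the WT libraries. In the genotype comparisons and the interaction the number of members called was 0 in every alternative. Total counts alone moved the exercise values in MKO muscle by -0.15 on the log2 scale relative to TMM.

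Values that changed sign were in no case called. With the replicate block these were the log2 fold changes of Dusp4 for exercise in WT muscle (-0.22), Dusp1 between genotypes at rest (-0.19), and Dusp2 (0.029) and Dusp6 (0.064) between genotypes after running. No label says that libraries of the same replicate number belong together. Their deviations from the group means correlated at -0.153 to 0.0759 over 10 pairs, and those of other pairs at -0.103 to 0.109. Correlations over all genes cannot decide on a pairing that touches only some genes, which was not tested. With the 3 libraries left out together the values that changed sign were Dusp4 for exercise in WT muscle (-0.14), Dusp8 (0.12) and Dusp14 (0.020) at rest and Dusp5 after running (-0.17). Under total counts alone they were Dusp8 at rest (0.077) and Dusp6 in the interaction (-0.024). With a library left out the ranges were -0.14 to 0.45 for Dusp4 for exercise in WT muscle, -0.17 to 0.13 for Dusp8 and -0.063 to 0.058 for Dusp16 for exercise in MKO muscle, at rest -0.22 to 0.23 for Dusp1, -0.16 to 0.12 for Dusp8, -0.0051 to 0.35 for Dusp10 and -0.27 to 0.079 for Dusp14, after running -0.18 to 0.50 for Dusp4, -0.36 to 0.66 for Dusp5 and -0.24 to 0.025 for Dusp6, and in the interaction -0.12 to 0.19 for Dusp6 and -0.19 to 0.16 for Dusp14. The cause of these changes was not tested.

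Over all genes the number called for exercise was 1193 in WT (602 with the replicate block) and 586 in MKO muscle (361 with the block, 341 without sedentary MKO replicate 2 and 316 without exercised MKO replicate 2). Between exercised MKO and WT muscle it was 5 (95 with DESeq2, 2 to 108 with a library left out, 108 without exercised MKO replicate 2), at rest 1 (0 to 3) and in the interaction 0 (534 with an unadjusted p under 0.05, DESeq2 3, limma-voom 4). Averaged over both states it was 2 (139 with DESeq2, 163 without exercised MKO replicate 2). Depth limits Dusp2, Dusp4 and Dusp5, with at most 48 counts per library.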
